A study of Rattus norvegicus with 14 samples.

Results

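Antioxidant enzymes were described in thoracic aortas of Sprague-Dawley rats with renal failure brought on by adenine, labelled A-CRF (8 samples), and in those of rats labelled Control (6 samples), with 1 array per sample. The genes were Sod1, Sod2, Sod3, Cat, Gpx1, Gpx3, Prdx1, Hmox1, Nqo1 and Txnrd1, chosen by name. Of these 10 genes, 9 had a probe set annotated with that symbol alone, out of 14217 genes measured in this way, and they were covered by 10 of the 31042 probe sets tested. The only probe set of Prdx1, a peroxiredoxin, was annotated with 2 genes, Prdx1 and Prdx1l1, so no value is given for it. Where a gene had several probe sets, the brightest on average over the 14 arrays stood for it. Sex, age, adenine dose and duration, and whether each sample was a separate animal, are not stated in the labels. The p-values therefore describe how these samples vary, and part of that variation may be technical. Each sample is whole thoracic aorta, in which fewer cells of a type and less RNA per cell cannot be told apart. Fat markers were present too, with the brown fat marker Ucp1 at 5.31 to 9.75 log2 units in A-CRF and 6.88 to 9.07 in Control.

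Superoxide dismutases turn superoxide into hydrogen peroxide, in the cytosol (Sod1), in mitochondria (Sod2) and outside cells (Sod3, which binds to matrix and is abundant in arteries). Catalase and the selenium-containing glutathione peroxidases then break down hydrogen peroxide. Hmox1, Nqo1 and Txnrd1 are textbook targets of the transcription factor Nrf2 (gene Nfe2l2), which the adaptor Keap1 holds in check until oxidants or electrophiles modify it.

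In A-CRF aortas Sod1 fell, and no other enzyme of the set passed the test. Sod1 averaged 9.96 ± 0.09 log2 units over the 8 A-CRF arrays and 10.20 ± 0.08 over the 6 Control arrays (means with SD), a 1.18-fold lower level. Sod3 lay 0.52 ± 0.13 log2 units higher in A-CRF (SE), the largest difference of the set, with an adjusted p of 0.054 (limma). The remaining 7 enzymes, Sod2, Cat, Gpx1, Gpx3, Hmox1, Nqo1 and Txnrd1, had differences of -0.29 to 0.40 log2 units. By limma with Benjamini-Hochberg adjustment over all probe sets and a threshold of 0.05, 1 of the 9 measured genes was lower and 0 were higher. At an unadjusted p under 0.05 the counts were 1 lower and 1 higher. Of all 14217 genes 1262 were then lower and 1385 higher, and of all probe sets 7.23% were lower and 7.19% higher. An exact rank-sum test, adjusted in the same way, called 0 of the 9 higher and 0 lower, and called 429 of all 31042 probe sets. Of all probe sets 2.05% passed limma, 1.26% higher and 0.789% lower, and of all 14217 genes 275 passed as higher and 150 as lower. The median difference was 0.013 log2 units over the 9 genes, against -0.0012 over all 14217 genes.

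**Figure D1:**
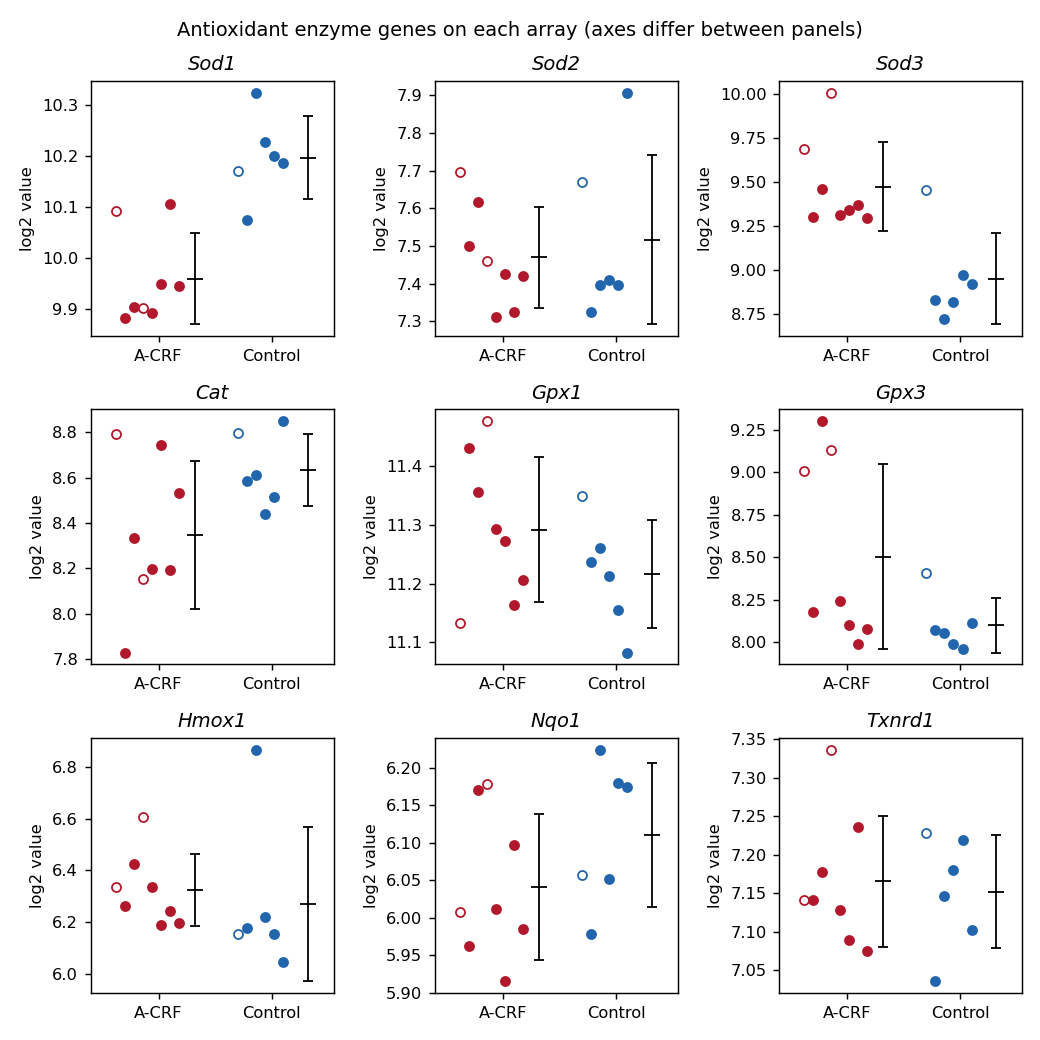
Log2 value (vertical axis, its range set per panel) of each of the 9 measured antioxidant enzyme genes on each array, for 8 A-CRF arrays (red, left) and 6 Control arrays (blue, right). Open points mark A-CRF 1, A-CRF 4 and Control 1, the arrays with a high GAPDH 3' minus 5' difference, and the black bar with whiskers is the group mean with its SD. All 8 A-CRF arrays lie below the Control median for Sod1 and above it for Sod3.

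The arrays were alike in scale, with medians of 5.62 to 5.64 log2 units in both A-CRF and Control, and correlations between arrays over all probe sets of 0.971 to 0.997. A-CRF 1, A-CRF 4 and Control 1 stood apart in the control probe sets for GAPDH. The signal at the 3' end of that transcript exceeded the signal at the 5' end by 1.90, 1.63 and 1.58 log2 units on these arrays. On the other 11 it did so by 0.37 to 0.55. A high difference can be a sign of shorter RNA. The mean of the spike-in control probe sets was also lowest on these arrays, 8.40, 8.65 and 8.53, against 8.80 to 9.23 on the other 11. Whether shorter RNA or another difference between arrays lay behind this was not tested. Results that move with these arrays are given below with and without them. The smooth muscle markers fixed for checking the tissue were 9 genes, among them Acta2, Myh11 and Tagln. All had Control means over 1 log2 unit above the lowest value in the table, 4.82. List means were 9.76 to 10.14 in A-CRF and 9.97 to 10.56 in Control. Only 1 marker passed, Myh11, which was lower in A-CRF (-0.29 ± 0.07 log2 units, SE, limma adjusted p = 0.043). The median difference of the list was -0.23, with single markers from -0.42 (Cnn1) to 0.03 (Des). Of 15 macrophage markers 10 were higher in A-CRF, with list means of 7.22 to 7.64 on the A-CRF arrays and 6.83 to 7.03 on the Control arrays. The clock score, built from the core clock genes and their outputs, had a median of -1.24 in A-CRF and 1.19 in Control, with overlap between the groups. No marker of endothelium (9 measured), white fat (8), brown fat (5), fibroblasts (8) or red cells (4) passed. The brightness limit given for smooth muscle was met by 8, 7, 3, 8 and 1 of these. The 3 brown fat markers were Ucp1 (-1.04 ± 0.68 log2 units, SE), Cox8b (-0.81 ± 0.51) and Cidea (-0.59 ± 0.29). The red cell marker was Hbb (-0.85 ± 0.27, limma adjusted p = 0.12). The fibroblast list means were 9.45 to 9.68 in A-CRF and 9.23 to 9.43 in Control, without overlap. The median difference of that list was 0.08 log2 units, and its largest was Col1a1 (0.67 ± 0.22, SE, limma adjusted p = 0.14). The lack of a call therefore does not show equal amounts of any of these cell types. Of 7 skeletal muscle markers 1 was lower, the muscle creatine kinase Ckm (-0.41 ± 0.08 log2 units, SE, limma adjusted p = 0.023), with list means of 6.18 to 6.44 in A-CRF and 6.28 to 6.43 in Control.

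Among the superoxide dismutases, the copper and zinc enzyme Sod1 was at 9.88, 9.92 and 10.11 log2 units in A-CRF (lowest, median and highest of 8) and at 10.07, 10.19 and 10.32 in Control (of 6). The groups overlapped only through A-CRF 1 (10.09) and A-CRF 7 (10.11), which lay above Control 2 (10.07), so 6 of 8 A-CRF arrays were below every Control array and all 8 were below the Control median. The difference was -0.24 ± 0.04 log2 units (SE, 95% interval -0.33 to -0.14, limma adjusted p = 0.015). With 1 array left out at a time it passed in all 14 fits (-0.26 to -0.21, highest adjusted p = 0.042), and on the 11 arrays of low GAPDH difference it was -0.26 ± 0.05 (adjusted p = 0.021). The call was lost in the exact rank-sum test (adjusted p = 0.087) and with covariates for brown fat markers (-0.22, adjusted p = 0.064), clock genes (-0.21, adjusted p = 0.13) or macrophage markers (-0.15, adjusted p = 0.999).

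Sod3, the secreted enzyme, was at 9.29, 9.35 and 10.01 log2 units in A-CRF (lowest, median and highest) and at 8.72, 8.87 and 9.45 in Control. The upper values came from the arrays of high GAPDH difference: in A-CRF the highest were A-CRF 4 (10.01) and A-CRF 1 (9.69), and in Control the highest was Control 1 (9.45), with Control 5 next at 8.97. On the other 11 arrays the groups were separate, with 9.29 to 9.46 in A-CRF and 8.72 to 8.97 in Control. With all arrays the difference was 0.52 ± 0.13 log2 units (SE, 95% interval 0.25 to 0.80), 1.43-fold, and missed the threshold (limma adjusted p = 0.054). Without A-CRF 1, A-CRF 4 and Control 1 it was 0.50 ± 0.04, 1.41-fold, and passed (limma adjusted p = 0.0013). The means with SD were then 9.35 ± 0.06 over 6 A-CRF arrays and 8.85 ± 0.10 over 5 Control arrays. In that fit 2.89% of all probe sets passed, and on these 11 arrays 2.37% of probe sets had all A-CRF values above all Control values and 1.42% all below.

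Leaving out these 3 arrays narrowed the spread within each group, which with all arrays had been an SD of 0.25 in A-CRF and 0.26 in Control. With the GAPDH difference as a covariate Sod3 also passed (0.49, adjusted p = 0.0034), as it did without Control 1 alone (0.62, adjusted p = 0.022). The other 13 fits that left out 1 array did not call it (highest adjusted p = 0.12). With clock genes as a covariate it was 0.38 (adjusted p = 0.33), and with macrophage markers 0.17 (adjusted p = 0.999). That last covariate has no overlap between the groups, and with it limma called 0 of the 31042 probe sets, with 1325 at an unadjusted p under 0.05. What part macrophages have in the differences of Sod1 and Sod3 was not tested further.

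**Figure D2:**
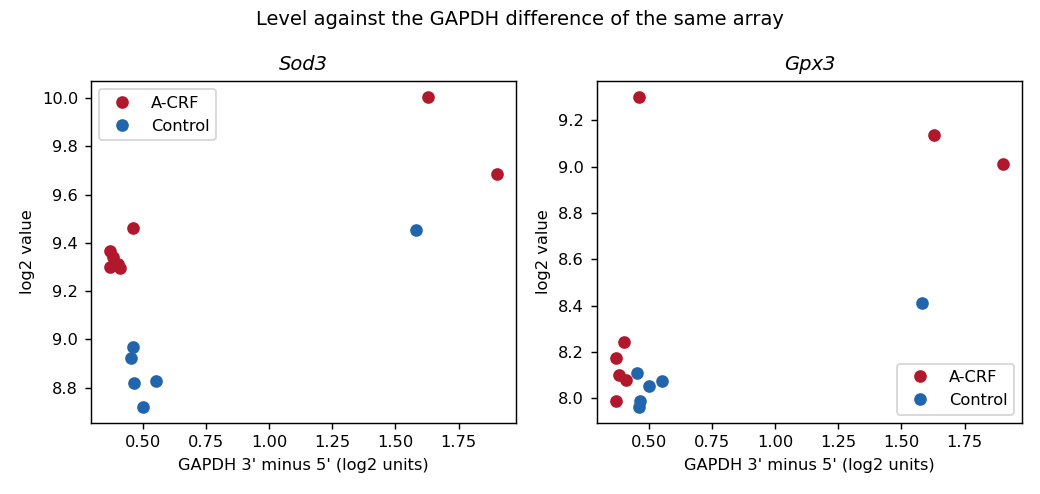
Log2 value of Sod3 (left) and Gpx3 (right) on each array against the GAPDH 3' minus 5' difference of the same array, in log2 units, for 8 A-CRF arrays (red) and 6 Control arrays (blue). Among arrays with a difference of 0.37 to 0.55, Sod3 is at 9.29 to 9.46 in A-CRF and 8.72 to 8.97 in Control, while Gpx3 overlaps between the groups.

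Sod2, the manganese enzyme of mitochondria, did not separate the groups. It was at 7.31, 7.44 and 7.70 log2 units in A-CRF (lowest, median and highest) and at 7.33, 7.40 and 7.91 in Control, and the difference was -0.05 ± 0.09 (SE, 95% interval -0.24 to 0.14, adjusted p = 0.91). The 3 dismutases were therefore on different sides of 0, and only for Sod1 and Sod3 did the 95% interval leave out 0.

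Of the enzymes that remove hydrogen peroxide, none passed. Catalase (Cat), the peroxisomal enzyme, was at 7.83, 8.26 and 8.79 log2 units in A-CRF (lowest, median and highest) and at 8.44, 8.60 and 8.85 in Control. Its A-CRF values were spread more widely, with an SD of 0.33 against 0.16 in Control, and 5 of 8 were below every Control array. The difference was -0.29 ± 0.14 (SE, 95% interval -0.58 to 0.0038, adjusted p = 0.35). It was -0.14 with the white fat marker score as a covariate and -0.10 with the brown fat score. The mean of the white fat markers ran from 7.04 to 8.46 on the A-CRF arrays and from 7.85 to 8.51 on the Control arrays, and that of the brown fat markers from 5.83 to 7.54 in A-CRF and from 6.39 to 7.67 in Control. The part of fat in this difference was not tested further.

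Gpx1, the intracellular glutathione peroxidase, was at 11.13, 11.28 and 11.48 log2 units in A-CRF (lowest, median and highest) and at 11.08, 11.23 and 11.35 in Control. The groups overlapped, and the difference was 0.08 ± 0.06 (SE, 95% interval -0.05 to 0.20, adjusted p = 0.64).

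Gpx3, the secreted form found in plasma and made mainly by the kidney, was uneven within A-CRF. It was at 9.30, 9.13 and 9.01 log2 units on A-CRF 3, A-CRF 4 and A-CRF 1, whereas the remaining A-CRF arrays lay between 7.99 and 8.24. In Control it was at 7.96 to 8.41, with Control 1 highest. The SD in A-CRF was 0.54 against 0.16 in Control, a ratio of 3.37, and the difference between the groups, 0.40 ± 0.21 (SE, 95% interval -0.06 to 0.86), did not pass (adjusted p = 0.43). Without A-CRF 1, A-CRF 4 and Control 1 it was 0.28 ± 0.20 (adjusted p = 0.59). The GAPDH difference was high on A-CRF 1, A-CRF 4 and Control 1, and it was 0.46 on A-CRF 3. A-CRF 3 and A-CRF 4 had the highest macrophage marker scores (1.59 and 1.38, mean z over the list), and A-CRF 1 a score of 0.25, within the range of the other A-CRF arrays. With the clock gene score as a covariate the difference between the groups was 0.10, and with the macrophage score -0.44, neither past the threshold. With the GAPDH difference as a covariate it was 0.37 (limma adjusted p = 0.27). Why Gpx3 was high on some arrays was not tested.

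**Figure D3:**
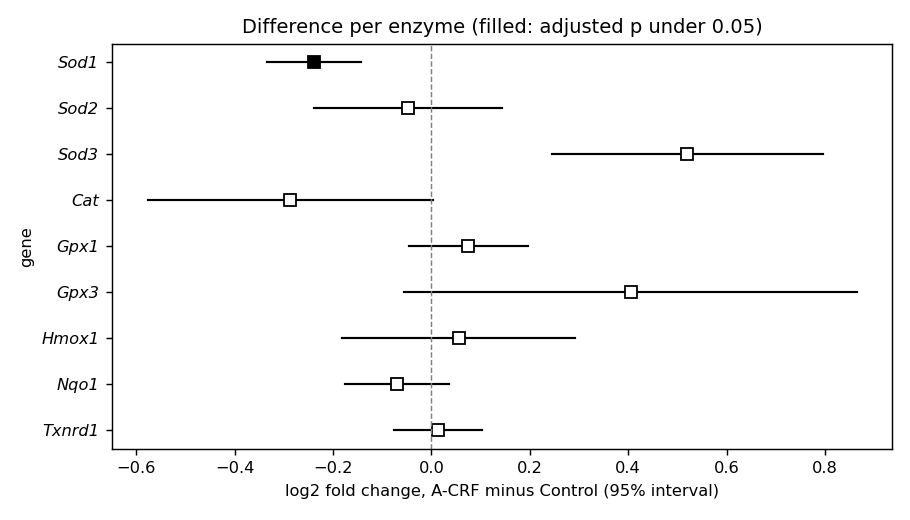
Log2 fold change of each antioxidant enzyme gene, A-CRF minus Control (horizontal axis), with the 95% interval from limma over 8 A-CRF and 6 Control arrays. The filled square, Sod1 at -0.24, passed an adjusted p of 0.05, and Sod3 at 0.52 (adjusted p = 0.054) and the others, drawn open, did not.

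The 3 enzymes named above as Nrf2 targets showed no difference that passed. Hmox1, which degrades haem, was at 6.19, 6.30 and 6.61 log2 units in A-CRF (lowest, median and highest) and at 6.05, 6.16 and 6.87 in Control. All 8 A-CRF arrays were above the Control median, but the highest array of all was Control 3 (6.87), 0.65 above the next Control array, and the difference was 0.06 ± 0.11 (SE, 95% interval -0.18 to 0.29, adjusted p = 0.91). Without Control 3 it was 0.18 (adjusted p = 0.22). Without A-CRF 4, the highest A-CRF array, it was 0.015 (limma adjusted p = 0.98). On the 11 arrays of low GAPDH difference it was -0.016 (limma adjusted p = 0.98). Nqo1, a quinone reductase, was at 5.92 to 6.18 log2 units in A-CRF and 5.98 to 6.22 in Control, a difference of -0.07 ± 0.05 (95% interval -0.18 to 0.04, adjusted p = 0.61). Txnrd1, the selenoenzyme that recycles cytosolic thioredoxin, was at 7.07 to 7.34 in A-CRF and 7.04 to 7.23 in Control, a difference of 0.01 ± 0.04 (95% interval -0.08 to 0.10, adjusted p = 0.95). Its second probe set gave -0.02 ± 0.03 (adjusted p = 0.91). The Control means of Hmox1 and Nqo1 were 1.45 and 1.29 log2 units above the lowest value in the table, so for these genes small changes may be compressed if an offset was added before deposit. For Txnrd1 the interval corresponds to 0.95 to 1.07 times the Control level.

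Nrf2 binds the antioxidant response element, whose core was searched for as TGACNNNGC on both strands in RefSeq start regions of the GRCr8 assembly (250 bases before to 50 after a start). Of the 10 genes, 8 had such a region, Sod3 and Hmox1 not among them, and 9 regions were searched because Txnrd1 has 2. The core was present in 3 of these 9 regions and in 12.1% of all 33469 regions. The matches of Sod2, Prdx1 and Txnrd1 are shown 5′ to 3′ in the direction of the gene because they are the members in which the core was found. Capitals mark the core, which reads GCNNNGTCA here as it lies on the opposite strand.
Sod2 (chr1:50050185-50050213, minus strand): ggcgctgccgGCAGGGTCAgcgcctagct
Prdx1 (chr5:135383761-135383789, plus strand): cagggaaagcGCTGAGTCAtaccccgccg
Txnrd1 (chr7:22755964-22755992, minus strand): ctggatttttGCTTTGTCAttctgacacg
The Prdx1 match overlaps an AP-1 site, TGANTCA, which is present in 7.33% of all regions. These are letter matches in short windows, and nothing was measured at them here. Of the genes with a match and a value, neither Sod2 nor Txnrd1 passed the test.

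Genes that work with these enzymes were described from 7 lists of 80 measured genes. Of these, 2 were higher, 2 were lower and 76 did not pass, with a median difference of -0.01 log2 units. At an unadjusted p under 0.05, 12 of the 80 were higher and 16 lower, against 1385 and 1262 of all 14217 genes, and by the adjusted test 275 of all genes were higher and 150 lower. Cybb, the superoxide-making core of the phagocyte NADPH oxidase, was the larger of the 2 rises, and Idh2, a mitochondrial enzyme that supplies NADPH, the larger of the 2 falls. On 0.944% of all probe sets every A-CRF array was above every Control array, and on 0.438% every A-CRF array was below. Cybb was above and Idh2 below in this sense, and none of the 9 antioxidant enzymes was either.

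**Figure D4:**
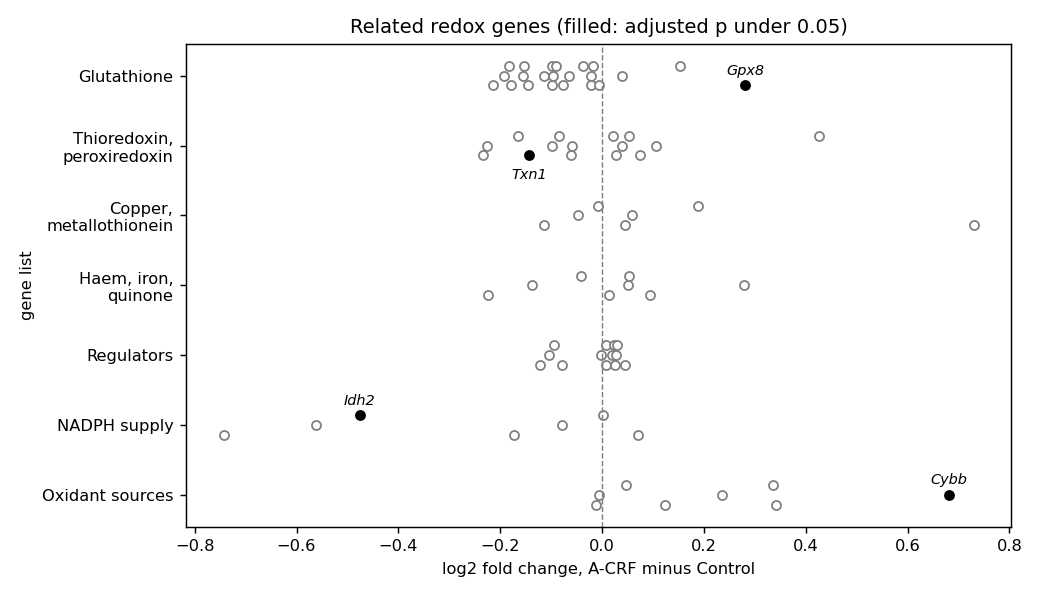
Log2 fold change, A-CRF minus Control (horizontal axis), of 80 related redox genes in 7 lists (rows), 1 point per gene, over 8 A-CRF and 6 Control arrays. Filled points passed an adjusted p of 0.05: Cybb (0.68) and Gpx8 (0.28) were higher, and Txn1 (-0.14) and Idh2 (-0.48) lower.

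Cybb was at 7.43, 7.63 and 7.96 log2 units in A-CRF (lowest, median and highest) and at 6.66, 7.05 and 7.17 in Control, and the groups did not overlap. It rose by 0.68 ± 0.09 log2 units (SE, 95% interval 0.48 to 0.88, adjusted p = 0.0039), 1.60-fold. With the macrophage markers, Cybb among them, as a covariate the difference was 0.19 and did not pass (adjusted p = 0.999). A second probe set of Cybb lay 0.25 ± 0.08 higher and did not pass (adjusted p = 0.14). Cybb is itself 1 of the 15 macrophage markers, of which 10 were higher, and among the 8 measured oxidant sources it was the only one past the threshold. The endothelial and smooth muscle oxidase Nox4 had a difference of 0.34 ± 0.13 (adjusted p = 0.21) and the xanthine-oxidising enzyme Xdh 0.34 ± 0.10 (adjusted p = 0.098); both were named after their values were seen.

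In the list of glutathione synthesis and use, 1 of 22 genes passed as higher, 0 as lower. Gpx8, a peroxidase of the endoplasmic reticulum, was at 8.89, 9.05 and 9.17 log2 units in A-CRF (lowest, median and highest) and at 8.65, 8.76 and 8.89 in Control. Only A-CRF 3 (8.89) lay within the Control range, and the gene rose by 0.28 ± 0.05 (SE, adjusted p = 0.014), 1.21-fold. The call was kept in all 14 fits that left out 1 array (highest adjusted p = 0.037). It was lost in the exact rank-sum test (adjusted p = 0.064) and with the brown fat (0.24, adjusted p = 0.056), clock gene (0.32, adjusted p = 0.059) or macrophage (0.36, adjusted p = 0.999) covariate. The clock gene and macrophage fits called 39 and 0 of all 31042 probe sets, so a call lost there tells little about a single gene. This limit also holds for the other genes described with these covariates. Of the 22 genes 19 had a difference below 0, as did 7282 of all 14217 genes. The list median was -0.09 against -0.0012 over all genes. The medians of the other lists ran from -0.17 (NADPH supply) to 0.18 (oxidant sources). The 19 differences below 0 lay between -0.21 (the microsomal transferase Mgst1) and -0.0066, and no p is given for the list.

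Of 15 thioredoxins, peroxiredoxins and methionine sulfoxide reductases, 0 were higher, 1 was lower and 14 did not pass. Txn1, the cytosolic thioredoxin that Txnrd1 keeps reduced, was at 10.69, 10.78 and 10.86 log2 units in A-CRF (lowest, median and highest) and at 10.85, 10.93 and 10.95 in Control. It fell by 0.14 ± 0.03 (SE, adjusted p = 0.020), and 7 of 8 A-CRF arrays were below every Control array. The call ended without Control 5 (adjusted p = 0.051), with eBayes using trend and robust options (adjusted p = 0.17), in the rank-sum test (0.064) and with the white fat (0.054), brown fat (0.066), clock gene (0.16) or macrophage (0.999) covariate.

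Among 7 measured genes of NADPH supply, 0 were higher, 1 was lower and 6 did not pass. Idh2 was at 8.46, 8.86 and 9.11 log2 units in A-CRF (lowest, median and highest) and at 9.11, 9.28 and 9.50 in Control, with no overlap, the nearest arrays being A-CRF 8 (9.108) and Control 3 (9.111). It fell by 0.48 ± 0.10 (SE, adjusted p = 0.031), 1.39-fold lower. The call was lost in 6 of the 14 fits without 1 array, those without A-CRF 5, Control 1, Control 2, Control 4, Control 5 or Control 6 (highest adjusted p = 0.069). It was also lost without the 3 arrays of high GAPDH difference (-0.45, adjusted p = 0.072) and with the white fat (-0.44, 0.088), brown fat (-0.40, 0.10), clock gene (-0.38, 0.23) or macrophage (-0.16, 0.999) covariate. The transketolase gene Tkt (-0.74 ± 0.19, adjusted p = 0.063) and the malic enzyme Me1 (-0.56 ± 0.15, adjusted p = 0.078), named after their values were seen, had larger differences and wider errors.

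No gene passed among 7 of copper supply and metallothioneins, 8 of haem, iron and quinone partners, or 13 of the Nrf2 system and other regulators. Slc31a1, which brings copper into cells, had a difference of 0.19 ± 0.05 (SE, adjusted p = 0.069). Mt2A, a metal-binding metallothionein, was at 7.32, 7.81 and 9.13 log2 units in A-CRF (lowest, median and highest) and at 7.14, 7.23 and 7.55 in Control, a difference of 0.73 ± 0.26 (adjusted p = 0.18). Its spread was an SD of 0.67 in A-CRF and 0.15 in Control. Cyb5r3, a membrane reductase, had a difference of 0.28 ± 0.10 (adjusted p = 0.17), and Alas1, which starts haem synthesis, -0.22 ± 0.08 (adjusted p = 0.21). Of the regulators, the largest were Maff, a small partner of Nrf2, at -0.12 ± 0.12 (adjusted p = 0.75) and the Nrf2 relative Nfe2l1 at -0.10 ± 0.06 (adjusted p = 0.49). Nfe2l2 itself, added to the genes named after its value was seen, averaged 8.24 ± 0.15 over the A-CRF arrays and 8.22 ± 0.10 over the Control arrays (means with SD), a difference of 0.03 ± 0.06 (SE, limma adjusted p = 0.94). Keap1, added likewise, had a difference of 0.04 ± 0.03 (adjusted p = 0.54). Cul3, also added after its value was seen, had the lowest adjusted p of the regulators (-0.095 ± 0.030, SE, limma adjusted p = 0.12).

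Over the 14 arrays, with each group centred on its own mean, the genes whose values followed Sod1 most closely among 9316 candidates were Npw (Pearson r = 0.94), Scnm1 (0.92) and Gadd45gip1 (0.91). These are the highest of many values computed, so no p is given. Npw also fell (-0.31 ± 0.07 log2 units, SE, limma adjusted p = 0.049), with a mean of 5.88 in A-CRF and 6.19 in Control. For Scnm1 (-0.09, adjusted p = 0.43) and Gadd45gip1 (-0.10, adjusted p = 0.29) the difference did not pass.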

How the data were processed

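RNA from rat thoracic aorta was measured on 1-colour Affymetrix arrays, 1 per sample (8 A-CRF, 6 Control), per the labels' protocols. The authors deposited 1 value for each probe set on each array, taken here as log2. The submitters' processing notes name PLIER, with no version. For background correction, scaling between arrays and offset the sources used here name no method, and the log base was inferred from the range of 4.82 to 12.64. If the base differs, fold changes change with it. Array medians were 5.62 to 5.64. Sequencing depth does not apply, and the number of arrays limits the precision.

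Of 31099 probe sets, 57 manufacturer controls were left out. In the platform annotation 20826 probe sets carried 1 symbol, 436 carried several and 9780 carried none. Of the first, 20758 matched a RefSeq gene table by Entrez identifier, and 0 symbols changed. The RefSeq start regions come from GRCr8.

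Differences between A-CRF and Control were tested in R 4.3.3 using lmFit and eBayes of limma 3.58.1, with group as the only factor, 12 residual degrees of freedom, a two-sided test and Benjamini-Hochberg adjustment over 31042 probe sets. The procedure was tested on simulated data in which each probe set varied independently. That test therefore does not cover differences shared by many probe sets of an array, such as those described above. Scores of marker genes are means of z-values over the 14 arrays. The clock score is the mean z of 8 output genes (among them Dbp and Per2) minus that of Bmal1, Npas2 and Clock.

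The members, the related lists, the marker lists and the alternatives were chosen with earlier results of these data known. Named were all members, every related gene past the threshold, the 2 largest differences in a list where none passed, and the 3 genes closest to a member past the threshold in group-centred Pearson r, among genes brighter than the median probe set and without LOC or RGD symbols. Alternatives were another offset, scaling, filter, variance model, weighting, test, probe set choice, covariates for tissue makeup and RNA quality, and leaving out arrays. The brown fat and macrophage covariates were chosen after seeing the data.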

Additional observations from a re-analysis of the deposited data

Results flagged for a closer look

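Among 18 sets of values (9 genes in each of the 2 groups), 3 had a highest or lowest array far from its group, where chance alone flags about 1 in 20 groups. Sod3 on Control 1 was at 9.45 log2 units, against 8.97 on the next Control array. Gpx3 on Control 1 was at 8.41, against 8.11 on the next. Hmox1 on Control 3 was at 6.87, against 6.22 on the next. Control 1 also had a GAPDH 3' minus 5' difference of 1.58 log2 units, and Control 3 one of 0.50. No explanation was tested for these values.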

How the results depend on the processing

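Counts are given for probe sets called, antioxidant enzymes higher and lower, and related redox genes higher and lower (636, 0, 1, 2 and 2 with all arrays and no covariate). Leaving out 1 array gave 307 to 979 probe sets, 0 to 1 enzymes higher, 1 lower throughout, 2 to 4 related genes higher and 0 to 5 lower. The count of probe sets moved by over 1.5 times, to 979, 416 and 352, when array 1, 3 or 5 of A-CRF was left out, and to 420, 345, 307 and 365 when array 2, 4, 5 or 6 of Control was. The related genes were 4 higher and 5 lower without A-CRF 1, 0 lower without Control 5, and 1 lower when array 5 of A-CRF or array 1, 2, 4 or 6 of Control was left out.

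The GAPDH covariate gave 1041 probe sets, 1 enzyme higher, and 7 related genes higher and 4 lower. The spike-in covariate gave 1014 probe sets, 1 enzyme higher and 6 related genes higher. Array weights gave 1457, 1, 6 and 6, with the enzyme lower kept at 1. Without the 3 arrays of high GAPDH difference there were 1 enzyme higher and 4 related genes higher and 4 lower. The enzyme count on the higher side was also 1 with quantile normalization, dim probe sets left out, eBayes with trend and robust options (1 related gene lower) and averaging all probe sets of a gene. The white fat covariate gave 308 probe sets and 0 related genes lower. The brown fat covariate gave 177 probe sets, 0 enzymes lower, and 1 related gene higher and 0 lower. The clock covariate gave 39 probe sets, 0 enzymes lower, and 1 and 0 related genes. The macrophage covariate gave 0 in each count by limma, with 1325 probe sets at an unadjusted p under 0.05. The exact rank-sum test gave 429 probe sets, 0 enzymes lower and 1 and 1 related genes. The cause of these moves was not tested.

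Sod1 kept its sign in all 30 alternatives and Sod3 in all 30. Among enzymes that never passed, signs turned as follows. Values given for the rank-sum test are differences between group medians, whereas the other values are limma estimates. Txnrd1 was at -0.028 with array weights, -0.0047 with brown fat, -0.0056 with clock genes, -0.023 in the rank-sum test, -0.15 with macrophage markers, -0.0025 as the mean of its probe sets, -0.014 with white fat, and -0.011 to 0.028 without 1 array. Sod2 was at 0.043 with brown fat, 0.040 in the rank-sum test, 0.0043 with white fat, and -0.086 to 0.031 without 1 array. Hmox1 was at -0.0081 with brown fat, -0.037 with macrophage markers and -0.016 without the 3 arrays. With macrophage markers Cat was at 0.12, Gpx1 at -0.12 and Gpx3 at -0.44. No paired analysis was possible because the labels give no number shared by the groups.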
